A study of Mus musculus with 6 samples.

Results

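The 10 genes described here belong to the BCL2 family of survival and death genes. They were chosen by name, with earlier results of these data known. The anti-apoptotic members are *Bcl2*, *Bcl2l1* and *Mcl1*, and the effectors are *Bax* and *Bak1*. The BH3-only genes are *Bcl2l11*, *Bid* and *Bad*, and the mitophagy-linked genes are *Bnip3* and *Bnip3l*. All 10 were listed among the 16448 genes of the table, and 9 of them were among the 11364 genes that passed the filter on low values. RNA-seq was carried out on adult cardiomyocytes (CMs), the contracting muscle cells of the heart, from 3 CtrlCre and 3 Cpt1bcKO mice, all C57BL/6 and aged 8 to 12 weeks. Cpt1bcKO mice carry αMHC-Cre, which is driven by a cardiomyocyte promoter and active from embryonic stages, together with Cpt1b fl/fl alleles, whereas CtrlCre mice carry the Cre without the floxed alleles. *Cpt1b* encodes the muscle form of carnitine palmitoyltransferase 1, which admits long-chain fatty acids to mitochondria for oxidation. The comparison asks how expression in CMs differs when this gene has been absent since before birth.

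The BCL2 family decides whether the outer mitochondrial membrane stays closed. Anti-apoptotic members hold the effectors BAX and BAK in check, BH3-only proteins such as BIM (encoded by *Bcl2l11*) bind and block the anti-apoptotic members or activate the effectors, and open effector pores release cytochrome c, which starts the caspase cascade. MCL1 is needed for survival and mitochondrial function of adult CMs, and BNIP3 and BNIP3L (also called NIX) also act as receptors that bring damaged mitochondria to autophagosomes. Much of the control of these proteins lies in binding, phosphorylation and turnover, which RNA levels do not measure.

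The BH3 motif is the short helix through which these proteins bind each other, so its coding sequence shows what most of the members share. It was searched in the longest complete coding sequence of each member in GENCODE M21 (GRCm38) as a leucine codon, 3 codons of any kind, a glycine or serine codon, an aspartate codon and a codon for aspartate, glutamate or glycine. A single match was found in 8 of the 10 members, each within a coding exon, and is printed 5′ to 3′ as 36 bases with the leucine codon and the glycine or serine and aspartate codons in capitals.
Bcl2, chr1:106712575-106712610, minus strand, exon 1: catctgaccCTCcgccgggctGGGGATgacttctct
Bcl2l1, chr2:152829697-152829732, minus strand, exon 2: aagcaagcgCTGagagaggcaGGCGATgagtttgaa
Mcl1, chr3:95659427-95659462, plus strand, exon 1: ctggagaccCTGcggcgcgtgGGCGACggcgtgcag
Bax, chr7:45465997-45466032, minus strand, exon 3: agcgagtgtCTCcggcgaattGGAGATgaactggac
Bak1, chr17:27022531-27022566, minus strand, exon 4: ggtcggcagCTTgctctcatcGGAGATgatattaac
Bcl2l11, chr2:128147141-128147176, plus strand, exon 3: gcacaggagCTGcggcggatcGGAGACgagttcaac
Bid, chr6:120897289-120897324, minus strand, exon 4: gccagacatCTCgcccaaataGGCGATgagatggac
Bad, chr19:6950783-6950818, plus strand, exon 3: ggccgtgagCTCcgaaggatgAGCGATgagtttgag
The last capitals of *Bad* encode serine and aspartate, and those of the other 7 encode glycine and aspartate. Between 13 and 22 of the 36 bases were identical in any comparison of these sequences, so these stretches are not near-identical copies. No match was found in *Bnip3* or *Bnip3l*, which says only that this pattern is not in their longest coding sequences.

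The values are called normalized counts below, since the authors divided the reads of a gene by a size factor of the sample and rounded the quotient. They summed to 13393411 to 31722217 per sample, of which the mitochondrial rRNA gene *mt-Rnr2* took 61.8% to 80.8%, with 72.6% and 80.8% in Cpt1bcKO samples 2 and 3 and 61.8% to 64.6% in the other 4. Leaving out mitochondrial-encoded and rRNA genes, the totals were 3431157 to 3541875 in CtrlCre and 3131448 to 3286760 in Cpt1bcKO, without overlap. In the 4 samples in which it could be resolved, 1 read was worth 0.682 to 1.29 normalized counts, so that low values rest on few reads. *Cpt1b*, the targeted gene, was lower in every Cpt1bcKO sample (211 to 353) than in any CtrlCre sample (893 to 1861). Cardiomyocyte markers led the marker lists in all samples, with sums over 8 genes of 486909 to 596098 in CtrlCre and 306469 to 537004 in Cpt1bcKO, whereas 6 lymphocyte markers were not listed. *Xist* was high and the Y-linked *Ddx3y* was at 0 in sample 1 of each group, which were thus female, and the other 4 samples were male. The fit over all genes with limma called 178 genes at an adjusted *P* below 0.05, 75 higher and 103 lower. The split was 107 higher and 74 lower when the samples were scaled without mitochondrial-encoded and rRNA genes, which moved the median of all log2 fold changes from −0.0013 to 0.11. In bulk RNA, fewer cells of a type and less RNA per cell cannot be told apart.

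In Cpt1bcKO CMs, *Bcl2* rose 5.47-fold and *Bcl2l11* fell, with a 2.74-fold lower level, while *Bcl2l1*, *Mcl1*, *Bax*, *Bak1*, *Bad* and *Bnip3l* did not pass the test. *Bnip3* had a mean 0.532 times that of CtrlCre and did not pass after adjustment. Of the 9 members tested, 1 was called higher, against 0.66% of all genes tested, and 1 was called lower, against 0.906%. Both together are 2 of 9, against 1.57% of all genes. The count fell to 1, with *Bcl2l11* lost, in 5 of the 6 fits that left out a sample (all but the fit without Cpt1bcKO sample 1, which called 3), when samples were scaled without mitochondrial-encoded and rRNA genes, and with 1 prior variance for all genes. An unadjusted *P* below 0.05 was reached by 3 of the 9 (*Bcl2*, *Bcl2l11* and *Bnip3*), against 13.9% of all genes. The groups did not overlap in 2 of the 9 (*Bcl2* and *Bcl2l11*), against 18.7%. Over all genes tested, 5655 were estimated higher and 5709 lower. Since the members were chosen with earlier results of these data known, their counts are a description and not a test of the family. The same holds for the counts of the other gene lists below.

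**Figure D1:**
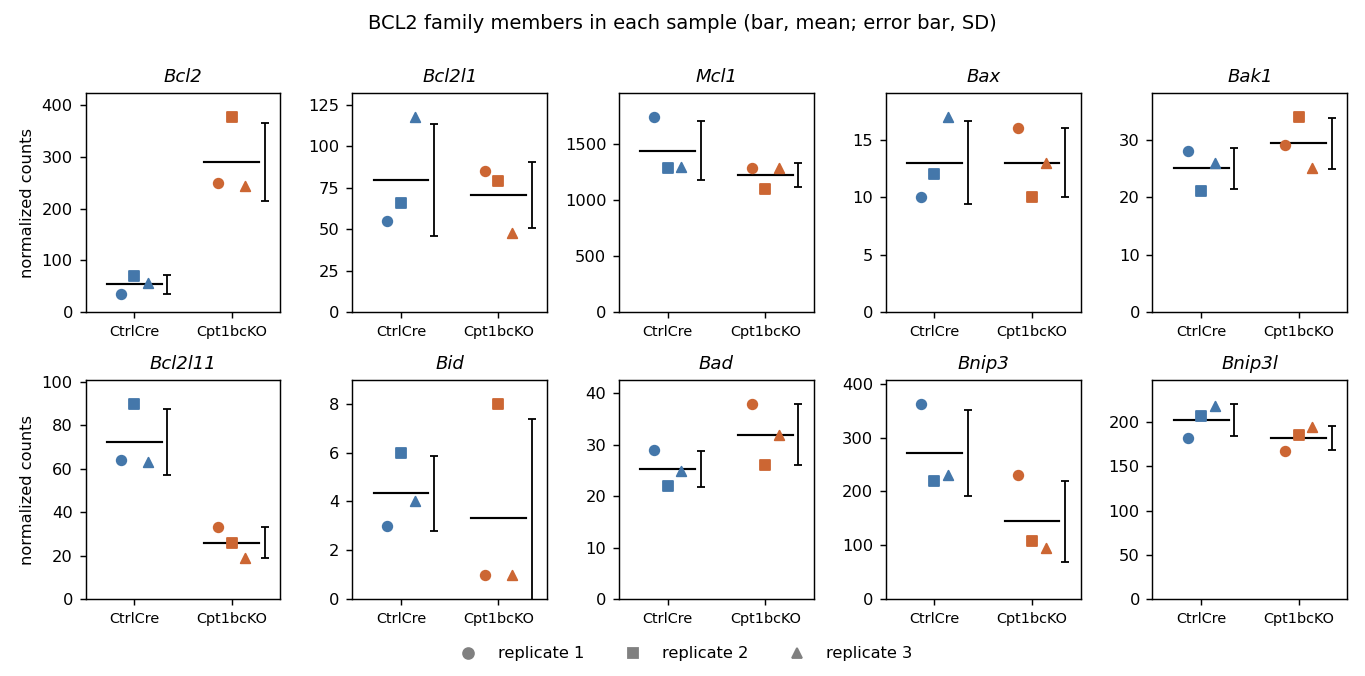
Normalized counts of the 10 members in each sample, on linear axes that start at 0. Points are samples (shape gives the sample number), the bar is the group mean and the error bar the SD of n = 3, which is cut at 0 for Bid in Cpt1bcKO. The groups are apart for Bcl2 and Bcl2l11 and overlap for the other 8.

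Among the anti-apoptotic members, *Bcl2* (ENSMUSG00000057329, chr1:106538178-106714274, minus strand, GRCm38) encodes the founding survival protein of the family. It had 34, 70 and 56 normalized counts in CtrlCre samples 1, 2 and 3 and 250, 378 and 243 in Cpt1bcKO samples 1, 2 and 3. Every Cpt1bcKO sample was thus above every CtrlCre sample. The means were 53.3 ± 18.1 and 290.3 ± 76.0 (SD, n = 3 each). On the log2(value + 1) scale the fold change was 2.45 (standard error 0.280, 95% interval 1.83 to 3.07, adjusted *P* = 0.00338 in limma), which corresponds to a 5.47-fold rise (3.56 to 8.42). *Bcl2* ranked 22nd of 11364 genes by log2 fold change from the highest and 13th by *P*. It was called with each sample left out in turn, with log2 fold changes from 2.16 to 2.68 and an adjusted *P* of at most 0.0330.

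Fibroblast markers moved in the same direction as *Bcl2*. All 5 tested of 6 were higher at an unadjusted *P* below 0.05, their summed level was 443 to 685 normalized counts in CtrlCre and 936 to 1121 in Cpt1bcKO, and *Col1a1*, a collagen chain of fibroblasts, was called (log2 fold change 1.32, adjusted *P* = 0.0143 in limma). *Tcf21*, a fibroblast transcription factor, was at 5 in all 3 CtrlCre samples and at 14, 4 and 16 in the Cpt1bcKO samples. Endothelial marker sums were 1152 to 2403 and 2091 to 2424, with all 6 genes estimated higher and none called. Macrophage and leukocyte marker sums were 49 to 86 and 76 to 87, and smooth muscle and pericyte sums were 542 to 1836 and 1008 to 1474. Sums of erythroid markers, of which 2 of 5 were listed, were 3 to 20 and 1 to 18. The part of other cells in the *Bcl2* value was not tested.

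*Bcl2* shares 558 exon bases with an antisense gene, *D630008O14Rik*, whose mean was 3.33 normalized counts with a range of 0 to 9. The authors left out reads that overlapped several genes, and whether counting used the strand is not given in the sources used here. *Bcl2* had 5.82 normalized counts per kb of exon in CtrlCre and 31.7 in Cpt1bcKO, the largest shift per kb among the members relative to its control level. By the likeness of log2 values over the 6 samples, *Lrp10* (Pearson's r = 0.999), *Mtor*, the growth kinase (0.997), and *Piezo1*, a mechanosensitive channel (0.996), were closest to *Bcl2* among 6796 genes whose mean was 50 or more. This is a description over samples that fall into 2 groups, and a gene that differs between the groups alone gives a high r.

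The promoters of the 3 members with an unadjusted *P* below 0.05 are printed because regulators of these genes are described further below. RefSeq (GRCm38.p6) gave 13 starts for 9 of the members. The 250 bases before the start were searched on both strands for short motifs. These were ACGTG, a form of the core bound by HIF factors, and CACGTG, the E-box that contains ACGTG. The others were GTAAACA, a forkhead motif, and TGACGTCA, the full cAMP response element. The form GCGTG of the HIF core was not searched, so a window without ACGTG may still hold a HIF core. GCGTG can be read, on either strand, in the *Bcl2l11* and *Bnip3* windows printed here. Of 32851 mouse promoters of the same length, 16.6% held ACGTG, 6.02% CACGTG, 3.17% GTAAACA and 1.55% TGACGTCA. Matches are in capitals.
Bcl2, chr1:106714291-106714540, minus strand: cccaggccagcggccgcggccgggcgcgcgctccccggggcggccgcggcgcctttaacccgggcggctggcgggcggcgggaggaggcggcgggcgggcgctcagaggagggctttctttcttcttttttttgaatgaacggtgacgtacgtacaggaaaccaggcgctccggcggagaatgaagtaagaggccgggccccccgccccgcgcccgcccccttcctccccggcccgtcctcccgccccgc
Bcl2l11, chr2:128125788-128126037, plus strand: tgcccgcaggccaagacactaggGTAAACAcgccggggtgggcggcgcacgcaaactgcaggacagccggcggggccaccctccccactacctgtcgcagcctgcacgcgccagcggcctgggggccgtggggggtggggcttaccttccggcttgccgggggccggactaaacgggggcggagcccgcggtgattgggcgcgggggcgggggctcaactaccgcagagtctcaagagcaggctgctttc
Bnip3, chr7:138909507-138909756, minus strand: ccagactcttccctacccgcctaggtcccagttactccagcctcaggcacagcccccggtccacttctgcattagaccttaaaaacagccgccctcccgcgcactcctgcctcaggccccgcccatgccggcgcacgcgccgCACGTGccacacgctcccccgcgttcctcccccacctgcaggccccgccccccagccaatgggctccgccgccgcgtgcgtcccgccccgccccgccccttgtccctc
None of the 4 motifs was in the *Bcl2* window, which was 74.8% G or C. The *Bcl2l11* window, at the first of 2 listed starts, was 72.0% G or C and held GTAAACA once, 227 bases before the start, and the window at the other start held none of the 4 motifs. The *Bnip3* window was 72.4% G or C and held CACGTG once, so that ACGTG was read there once on each strand, 107 and 108 bases before the start. Of the windows of the other 6 members listed, that of *Bax*, whose log2 fold change was 0.0082, also held CACGTG once, with ACGTG 8 and 9 bases before the start, and the others held none of the 4 motifs. These letters are descriptions of the sequence and were not tested as binding sites.

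*Mcl1* (ENSMUSG00000038612, chr3:95658788-95663176, plus strand) was the most abundant member per length in every sample, with 376 to 511 normalized counts per kb of exon in CtrlCre and 322 to 377 in Cpt1bcKO. Its values were 1747, 1285 and 1296 normalized counts in CtrlCre and 1287, 1100 and 1285 in Cpt1bcKO. CtrlCre sample 1 stood above the other 5, which lay between 1100 and 1296, and the groups overlapped. The log2 fold change was −0.23 with a 95% interval from −0.58 to 0.13 (adjusted *P* = 0.573 in limma), so the data allow any change from 0.669-fold to 1.09-fold.

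*Bcl2l1* (ENSMUSG00000007659, chr2:152780668-152831728, minus strand) encodes the anti-apoptotic BCL-xL and, by splicing, a short pro-apoptotic form, which gene counts do not separate. It had 55, 66 and 118 normalized counts in CtrlCre and 85, 79 and 48 in Cpt1bcKO. The highest and the lowest value both came from sample 3 of a group, and all ranges overlapped. The log2 fold change was −0.14 (95% interval −0.84 to 0.57, adjusted *P* = 0.890 in limma), and its sign turned to 0.18 without CtrlCre sample 3 and to 0.12 without Cpt1bcKO sample 3.

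Within the anti-apoptotic members, the share of *Bcl2* in their summed normalized counts per kb was 0.705%, 1.92% and 1.49% in CtrlCre and 6.46%, 10.9% and 6.43% in Cpt1bcKO. *Mcl1* made up 97.0%, 94.5% and 92.3% in CtrlCre and 89.1%, 84.6% and 91.0% in Cpt1bcKO. The sum itself was 398 to 527 per kb in CtrlCre and 380 to 422 in Cpt1bcKO, so the groups overlapped in the sum while the shares of *Bcl2* and *Mcl1* did not overlap. *Bcl2* was below *Bcl2l1* per kb in all 3 CtrlCre samples and above it in all 3 Cpt1bcKO samples. These shares are free of the scaling between samples and were not tested. They leave out *Bcl2l2*, an anti-apoptotic gene outside the members, whose means were 119 normalized counts in CtrlCre and 110 in Cpt1bcKO.

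**Figure D2:**
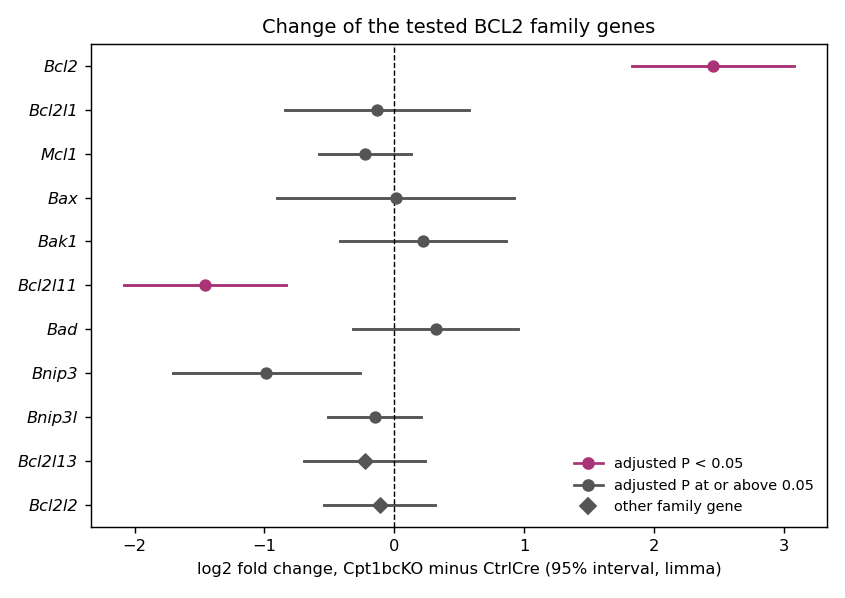
Log2 fold change (Cpt1bcKO minus CtrlCre, log2(value + 1) scale) of the 9 members and the 2 other BCL2 family genes that passed the filter, with 95% intervals from limma. The intervals of Bcl2 (1.83 to 3.07), Bcl2l11 (−2.08 to −0.83) and Bnip3 (−1.70 to −0.27) leave out 0, and Bcl2 and Bcl2l11 passed the adjusted threshold.

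The effectors form the pores of the outer mitochondrial membrane. *Bax* (ENSMUSG00000003873, chr7:45461697-45466898, minus strand) had 10, 12 and 17 normalized counts in CtrlCre and 16, 10 and 13 in Cpt1bcKO. Both means were 13.0 (SD 3.61 and 3.0, n = 3 each). The log2 fold change was 0.0082 with a 95% interval of −0.90 to 0.92 (adjusted *P* = 0.996 in limma), a range that reaches from 0.535-fold to 1.89-fold at this low level. Its sign changed with single samples left out, with a range from −0.15 to 0.20.

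*Bak1* (ENSMUSG00000057789, chr17:27019810-27029009, minus strand) had 28, 21 and 26 normalized counts in CtrlCre and 29, 34 and 25 in Cpt1bcKO, with overlap. The change on the log2 scale was 0.22 (95% interval −0.42 to 0.86, adjusted *P* = 0.783 in limma). *Bax* and *Bak1* were thus among the low members per length, at 8.25 and 10.4 normalized counts per kb in CtrlCre. *Bak1* shares 437 exon bases with *Ggnbp1* on the opposite strand (mean 54.0 normalized counts), so reads from this stretch may be missing from *Bak1*. *Bax* shares 192 exon bases with *Gm45808* on the same strand. *Gm45808* was not listed, and whether counting included it is not given in the sources used here. If it did, reads may be missing from *Bax* as well.

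Of the BH3-only members, *Bcl2l11* (ENSMUSG00000027381, chr2:128126038-128162547, plus strand) encodes BIM, which binds all main anti-apoptotic members. It had 64, 90 and 63 normalized counts in CtrlCre and 33, 26 and 19 in Cpt1bcKO. The highest Cpt1bcKO value was below the lowest CtrlCre value, and the means were 72.3 ± 15.3 and 26.0 ± 7.0 (SD, n = 3 each). On the log2 scale the change was −1.46 (standard error 0.282, 95% interval −2.08 to −0.83, adjusted *P* = 0.0327 in limma), which ranked 89th from the lowest of all genes tested and 131st by *P*.

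The call of *Bcl2l11* was close to the threshold and was lost in 5 of the 6 fits that left out a sample, while its log2 fold change stayed between −1.64 and −1.26. The adjusted *P* was 0.0752, 0.151 and 0.0980 without CtrlCre sample 1, 2 or 3, and 0.139 and 0.0736 without Cpt1bcKO sample 2 or 3. It was 0.0183 without Cpt1bcKO sample 1. Scaling without mitochondrial-encoded and rRNA genes gave −1.34 with an adjusted *P* of 0.0530. Of the cardiomyocyte markers, 8 of 8 were estimated lower (median log2 fold change −0.44, 2 at an unadjusted *P* below 0.05 and none called), the groups did not overlap in 3 of them, their sums overlapped between the groups, and their part in the *Bcl2l11* value was not tested. No other annotated gene shares exon bases with *Bcl2l11*.

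*Bad* (ENSMUSG00000024959, chr19:6941861-6951898, plus strand), whose protein is held inactive by phosphorylation, had 29, 22 and 25 normalized counts in CtrlCre and 38, 26 and 32 in Cpt1bcKO. The groups overlapped between 26 and 29, and the log2 fold change was 0.32 (95% interval −0.32 to 0.95, adjusted *P* = 0.673 in limma). *Bad* shares 524 exon bases with *Gpr137* on the opposite strand, whose mean was 41.0 normalized counts.

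*Bid* (ENSMUSG00000004446, chr6:120892854-120916853, minus strand), which links death receptors to mitochondria after cleavage by caspase 8, was the member that did not pass the filter. It had 3, 6 and 4 normalized counts in CtrlCre and 1, 8 and 1 in Cpt1bcKO. The extremes of both directions came from the Cpt1bcKO group, and the difference was not tested at this level. *Bid* shares 628 exon bases with *Bcl2l13* on the opposite strand, which had a mean of 389 normalized counts.

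Together, the BH3-only and effector members summed to 37.8 to 40.3 normalized counts per kb in CtrlCre and 33.8 to 41.4 in Cpt1bcKO. *Bcl2l11* made up 20.9%, 29.6% and 19.5% of this sum in CtrlCre and 9.92%, 8.96% and 7.0% in Cpt1bcKO. The sums overlapped between the groups and the share of *Bcl2l11* did not.

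**Figure D3:**
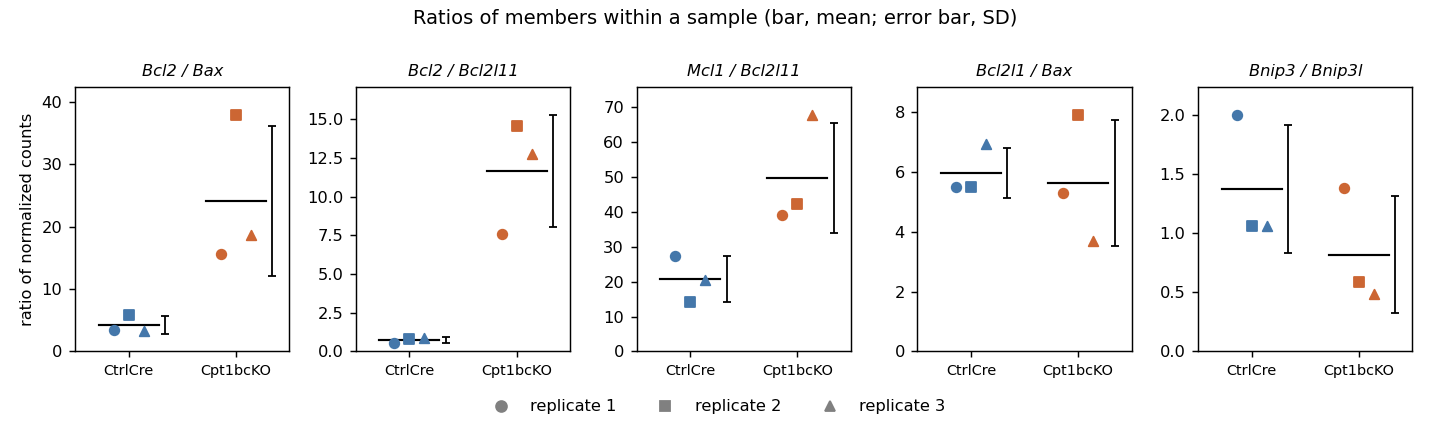
Ratios of the normalized counts of 2 members in the same sample, which do not depend on the scaling between samples, on linear axes from 0 (points, samples; bar, mean; error bar, SD of n = 3). The groups are apart for Bcl2 to Bax, Bcl2 to Bcl2l11 and Mcl1 to Bcl2l11, and overlap for Bcl2l1 to Bax and Bnip3 to Bnip3l.

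Ratios of members within a sample set survival genes against death genes without any scaling between samples. The ratio of *Bcl2* to *Bax* was 3.40, 5.83 and 3.29 in CtrlCre and 15.6, 37.8 and 18.7 in Cpt1bcKO. The ratio of *Bcl2* to *Bcl2l11* was 0.531, 0.778 and 0.889 in CtrlCre and 7.58, 14.5 and 12.8 in Cpt1bcKO, so that *Bcl2* was below *Bcl2l11* in each control sample and at least 7.58 times as high in each Cpt1bcKO sample. The ratio of *Mcl1* to *Bcl2l11* was 27.3, 14.3 and 20.6 in CtrlCre and 39.0, 42.3 and 67.6 in Cpt1bcKO. None of these 3 ratios overlapped between the groups, and each contains *Bcl2* or *Bcl2l11*. The ratio of *Bcl2l1* to *Bax*, which contains neither, was 5.50, 5.50 and 6.94 in CtrlCre and 5.31, 7.90 and 3.69 in Cpt1bcKO, with the CtrlCre values inside the Cpt1bcKO range. The ratios compare gene values that were not divided by length, and they were not tested.

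The mitophagy-linked members were both abundant. *Bnip3* (ENSMUSG00000078566, chr7:138890836-138909506, minus strand), a target gene of hypoxia signalling, had 363, 220 and 231 normalized counts in CtrlCre and 231, 108 and 94 in Cpt1bcKO. Sample 1, the female, was the highest of each group, and the groups overlapped between 220 and 231. The means were 271 ± 79.6 and 144 ± 75.4 (SD, n = 3 each), with the widest relative spread in Cpt1bcKO of all members tested (coefficient of variation 52.2%).

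The log2 fold change of *Bnip3* was −0.99 (standard error 0.324, 95% interval −1.70 to −0.27, unadjusted *P* = 0.0119, adjusted *P* = 0.200 in limma), so it was not called. It was called without Cpt1bcKO sample 1 (−1.38, adjusted *P* = 0.0140) and in the 4 male samples alone (−1.15, adjusted *P* = 0.0142), an alternative chosen after the data were seen. Each group held 1 female, and the part of sex in these values was not tested. *Bnip3* shares 504 exon bases with the antisense gene *Gm45507*. The patterns most like it over the 6 samples were those of *Grk2*, a receptor kinase (r = 0.999), *Calm2*, a calmodulin gene (0.997), and *Cul2*, a scaffold of the ubiquitin ligase that degrades HIF1A under oxygen (0.996), again as a description.

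*Bnip3l* (ENSMUSG00000022051, chr14:66985239-67008877, minus strand) had 182, 207 and 218 normalized counts in CtrlCre and 167, 185 and 194 in Cpt1bcKO. The coefficients of variation were 9.12% and 7.55%, the smallest of the members, and the group ranges shared 182 to 194. On the log2 scale the change was −0.15 (95% interval −0.51 to 0.21, adjusted *P* = 0.731 in limma). The ratio of *Bnip3* to *Bnip3l* was 1.99, 1.06 and 1.06 in CtrlCre and 1.38, 0.584 and 0.485 in Cpt1bcKO. Per kb, *Bnip3* made up 77.3%, 64.4% and 64.4% of the sum of this pair in CtrlCre and 70.2%, 49.9% and 45.2% in Cpt1bcKO, and the share in Cpt1bcKO sample 1 lay within the CtrlCre range.

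Per kb of exon, the order of the members in CtrlCre was *Mcl1* (422 ± 77.1), *Bnip3* (120 ± 35.1), *Bnip3l* (52.4 ± 4.78), *Bcl2l1* (17.4 ± 7.34), *Bak1* (10.4 ± 1.5), *Bad* (9.90 ± 1.37), *Bcl2l11* (9.01 ± 1.91), *Bax* (8.25 ± 2.29), *Bcl2* (5.82 ± 1.98) and *Bid* (1.22 ± 0.430), as mean ± SD of 3 samples. The ranges of neighbours from *Bak1* down to *Bcl2* overlapped, and those of the other neighbours in this order did not. In Cpt1bcKO, *Bcl2* (31.7 ± 8.30) moved to the fourth place, behind *Bnip3l* (47.2 ± 3.56) and with a range below that of *Bnip3l*, and *Bcl2l11* (3.24 ± 0.872) moved to the ninth, above *Bid* (0.939 ± 1.1). These levels use union exon lengths of GENCODE M21, which may be longer than the transcripts present in CMs.

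**Figure D4:**
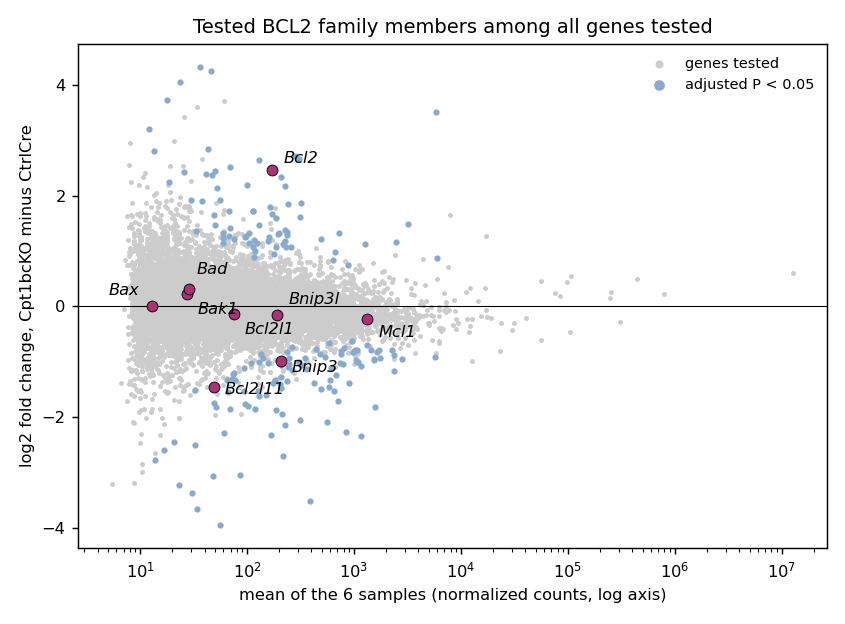
Log2 fold change against the mean of the 6 samples (log axis) for the 11364 genes tested, with the 9 tested members marked. Bcl2 lies near the upper edge and Bcl2l11 near the lower edge of the genes of like abundance, Bnip3 lies below most, and the other 6 lie within the bulk of genes.

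Other genes of the pathway were taken from lists. Of 15 other BCL2 family genes, 7 were listed and 2 passed the filter, *Bcl2l13* (log2 fold change −0.23, 95% interval −0.69 to 0.24), a mitochondrial member with a mitophagy role, and *Bcl2l2* (−0.11, −0.54 to 0.31), which encodes the anti-apoptotic BCL-w. Neither passed the test (adjusted *P* = 0.679 and 0.838 in limma), also without adjustment. The BH3-only genes *Bbc3*, *Bik*, *Bmf* and *Hrk* and the effector-like *Bok* were listed below the filter.

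Downstream of the mitochondria, all 18 genes of the apoptosome, the caspases and their inhibitors were tested, with 12 estimated higher and 6 lower (median log2 fold change 0.068). With limma none was called, 2 reached an unadjusted *P* below 0.05, both higher, and 2 did not overlap between the groups, which is below the shares over all genes tested (13.9% and 18.7%). *Dffa*, the inhibitor and chaperone of the caspase-activated DNase, had 126, 172 and 160 normalized counts in CtrlCre and 319, 258 and 230 in Cpt1bcKO (log2 fold change 0.81, unadjusted *P* = 0.00152, adjusted *P* = 0.0695). *Apaf1*, which forms the apoptosome with cytochrome c, had 25, 26 and 29 and then 37, 45 and 67 (0.83, unadjusted *P* = 0.0150, adjusted *P* = 0.216).

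Of 20 regulators of the members, all were tested, with 6 estimated higher and 14 lower (median log2 fold change −0.18). With limma none was called after adjustment, 1 was higher and 3 were lower at an unadjusted *P* below 0.05, and 4 did not overlap, which is near the shares over all genes tested (13.9% and 18.7%). *Hif1a*, the hypoxia-inducible factor, had 1014, 912 and 704 normalized counts in CtrlCre and 1784, 1211 and 1084 in Cpt1bcKO (0.62, unadjusted *P* = 0.0136, adjusted *P* = 0.208). *Fbxw7*, the ubiquitin ligase subunit that marks MCL1 for degradation, had 538, 419 and 453 and then 332, 279 and 368 (−0.53, unadjusted *P* = 0.00947, adjusted *P* = 0.181). *Pim3*, a kinase that phosphorylates BAD, had 220, 135 and 161 and then 145, 100 and 98 (−0.58, unadjusted *P* = 0.0318, adjusted *P* = 0.294). *Foxo3*, a forkhead factor known to act on *Bcl2l11*, is named after its values were seen and had 736, 704 and 521 and then 508, 434 and 529 (−0.40, unadjusted *P* = 0.0384, adjusted *P* = 0.324). *Hif1a* and *Fbxw7* did not overlap between the groups, and *Pim3* and *Foxo3* did.

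Of 14 genes of mitophagy and the LC3 family, with which BNIP3 and BNIP3L act, 13 were tested, with 8 estimated higher and 5 lower (median log2 fold change 0.13). The groups did not overlap in 5, against 18.7% of all genes tested, and 2 were called, against 1.57%. *Optn*, an autophagy receptor, had 699, 606 and 652 normalized counts in CtrlCre and rose to 1201, 1151 and 938 (log2 fold change 0.74, adjusted *P* = 0.0354 in limma). *Pink1*, the kinase that marks damaged mitochondria, had 1384, 1194 and 1332 in CtrlCre and fell to 903, 693 and 674 (−0.79, adjusted *P* = 0.0331 in limma). Both calls were lost in some fits that left out a sample. *Optn* was lost without CtrlCre sample 1, 2 or 3 or Cpt1bcKO sample 2 (adjusted *P* = 0.0674, 0.144, 0.136 and 0.201). *Pink1* was lost without any sample but Cpt1bcKO sample 1 (adjusted *P* from 0.0885 to 0.193) and when scaled without mitochondrial-encoded and rRNA genes (−0.68, adjusted *P* = 0.0756). *Gabarapl1*, an LC3 relative that binds BNIP3 and BNIP3L, had 292, 267 and 249 and then 537, 361 and 364 normalized counts (0.62, unadjusted *P* = 0.00698, adjusted *P* = 0.159).

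**Figure D5:**
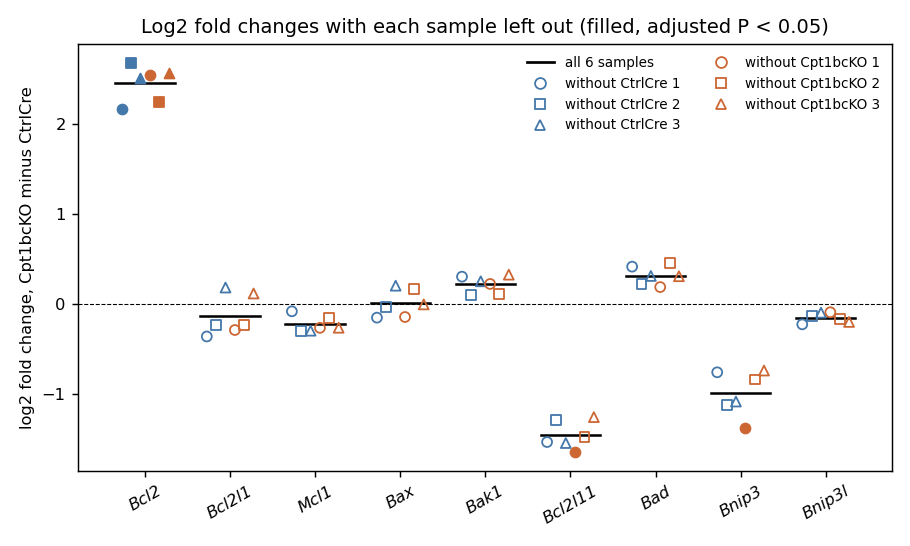
Log2 fold changes of the 9 tested members with all 6 samples (bar) and with each sample left out (points, colour for the group and shape for the number of the sample left out; filled points have an adjusted P below 0.05). Bcl2 stays filled in all 6 fits, from 2.16 to 2.68, whereas Bcl2l11 and Bnip3 are filled only without Cpt1bcKO sample 1.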

How the data were processed

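Isolated adult CMs from ventricles were sequenced as stranded total RNA (75-base single reads, Illumina). According to the submitters' processing notes and the study's methods, reads were trimmed with Trimmomatic 0.36, aligned to mm10 (GRCm38.p5) with STAR 2.5.4b and counted on genes with featureCounts 1.6.0, without reads on several genes or regions. The deposited values, treated as a score, are these counts after the authors divided them by size factors from DESeq2 1.14.1 and rounded them, so they are not raw counts. The deposited columns of group means, fold changes and P values were not used.

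Values were transformed to log2(value + 1), which understates changes of low genes. Genes with at least 10 in at least 3 samples were tested with limma 3.58.1 (R 4.3.3, eBayes with trend) between the 3 CtrlCre and 3 Cpt1bcKO mice without covariates, with Benjamini–Hochberg adjustment over all 11364 genes. The steps were tested on simulated data. All 10 members were named, and of other lists each called gene and up to 3 more with the lowest unadjusted P below 0.05. Members and lists were chosen with earlier results of these data known. Sequences, exon lengths and overlaps come from GENCODE M21 and RefSeq, and gene coordinates are those of the deposited table. Alternatives were 2 other scalings, pseudocounts of 0.5 and 5, other filters, 1 prior variance for all genes, a block for the sample number, each sample left out and, added after the data were seen, the male samples alone. Python 3.11.15 with pandas 2.3.3 and matplotlib 3.10.9 made tables and figures.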

Additional observations from a re-analysis of the deposited data

How the results depend on the processing

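*Bcl2* kept its direction and its call in every alternative run. Its log2 fold change was 2.36 to 2.57 under other scalings, filters, pseudocounts and priors (adjusted P from 0.00078 to 0.0395 in limma) and 2.26 in the male samples alone. The number of members called, 2 in the report, was 1 when samples were scaled without mitochondrial-encoded and rRNA genes and 1 with 1 prior variance for all genes, where *Bcl2l11* was lost (adjusted P = 0.0885), and it was 1 to 3 with each sample left out. Over all genes, 178 calls became 41 with 1 prior variance (where *Optn* and *Pink1* were lost with adjusted P = 0.158 and 0.156), 40 to 305 with each sample left out and 246 in the male samples alone. *Bcl2l1* ranged from −0.36 to 0.18 and *Bax* from −0.15 to 0.20 with each sample left out, so their signs are not determined, and *Bax* was −0.30 in the male samples.

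Sample numbers were not taken to pair the mice, since deviations of same-numbered samples correlated across genes at r = 0.376, 0.255 and 0.0684, and Cpt1bcKO sample 3 correlated better with CtrlCre sample 2 (0.147). A replicate block gave 603 calls over all genes and 3 among the members, with *Bnip3* (−0.99) at an adjusted P of 0.00737, and *Dffa*, *Fbxw7*, *Hif1a* and *Gabarapl1* were then also called. Why these calls changed was not tested. Precision is limited by 3 mice a group, which an exact permutation test cannot take below 0.10. It is also limited by depth for *Bax*, *Bak1*, *Bad* and *Bid*, whose values rest on few reads. The same holds for the called *Bcl2l11* in Cpt1bcKO, with 33, 26 and 19 normalized counts in samples 1, 2 and 3. Of the whole numbers up to 20, 5 never occurred in Cpt1bcKO sample 3, where 1 read was worth 1.29.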
